A study of Mus musculus with 16 samples.

Results

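Adipose tissue macrophages (ATMs) of wild-type (WT) mice after 12 weeks of high-fat diet (HFD) were compared with those of WT mice after 4 weeks of HFD. The comparison used 8 of the 16 libraries in the series, the 4 titled as WT at 12 weeks and the 4 titled as WT at 4 weeks, and the other 8 were from mice labelled KO. The WT mice were the controls of mice in which Irf5 was deleted in myeloid cells (Irf5 flox/flox crossed with LysM-Cre), and whether they carried floxed Irf5 alleles without Cre is not given in the sources used here. All were male, were 7 to 10 weeks old when the diet began and ate a diet with 60% fat, so the mice of the 12-week group were also older at collection. Cells were taken from epididymal fat and selected on magnetic beads by F4/80, a surface protein of mouse macrophages. The labels do not state 1 mouse per library, so p-values measure the spread between these libraries. Neither a library date nor a sequencing batch is given for the 2 durations, and an effect of diet duration cannot be told apart from one of age or of library batch. The durations are those of the sample titles. In the study's own plot of Irf5 against Ghitm, read by eye, points marked as the longer diet carry values that belong here to libraries titled 4 weeks, and the reverse. If the titles were exchanged, every direction below would turn.

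ATMs are a mixture of cells seeded early in life and of cells that differentiate from blood monocytes, and their number in epididymal fat rises in obesity, partly through local division. In obese fat they gather around dying adipocytes, take up and store lipid, and secrete cytokines. Fibroblasts and preadipocytes of the same fraction make the collagens and proteoglycans of the fat pad's matrix, and make the growth factor CSF1 on which macrophages depend.

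Stranded total RNA was depleted of ribosomal RNA and sequenced, and the authors deposited read counts per gene. The 4 libraries at 4 weeks held 3860469 to 4958131 counts and the 4 at 12 weeks 3279332 to 3789186, which did not overlap (two-sided exact permutation test, p = 0.0286, the smallest that 70 splits can give). Features grouped as ribosomal RNA, among them mt-Rnr1, mt-Rnr2 and the feature named mmu-mir-689-2, took 21.3% ± 2.11 (SD, n = 4) of the counts at 4 weeks and 29.4% ± 3.66 at 12 weeks (two-sided exact permutation p = 0.0286). Placing mmu-mir-689-2 in this group was a choice made here, and the share without it was not computed. The 13 protein genes of the mitochondrial genome took 0.764% ± 0.111 (SD, n = 4) and 0.752% ± 0.0772 (two-sided exact permutation p = 0.886). Replicate 4 at 12 weeks had the lowest mean correlation to the other libraries of its group, 0.944, against 0.952 to 0.960 for the other 3 with their group. The macrophage markers fixed for the check of the label were all detected, and each of the 12 was among the tested genes. Emr1, the gene of F4/80 (now Adgre1), was at 683, 557, 547 and 665 CPM at 4 weeks and 761, 662, 827 and 608 CPM at 12 weeks. Lyz2, the lysozyme gene that drives LysM-Cre, was at 3331, 3063, 3472 and 3767 CPM at 4 weeks and 3914, 3754, 4093 and 3022 CPM at 12 weeks. Neither Emr1 (log2 fold change 0.22 ± 0.13 SE, edgeR adjusted p = 0.258) nor Lyz2 (log2 fold change 0.12 ± 0.14 SE, edgeR adjusted p = 0.582) passed the test.

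Levels are given in CPM, the reads of a gene as a share of the library's reads scaled by TMM factors. Fold changes are on the log2 scale, 12 over 4 weeks. They were tested by edgeR's quasi-likelihood test over 4 against 4 libraries, with Benjamini-Hochberg adjustment over 10930 tested genes. The SE given with a log2 fold change is its absolute value divided by the square root of that test's F statistic. At an adjusted p under 0.05, 1112 genes were higher at 12 weeks (10.2% of those tested) and 1315 were lower (12.0%). The CPM of the 2 durations did not overlap for 2225 of these 2427 genes (91.7%), against 26.6% of all tested genes. The higher genes changed more: 519 were higher by over 1 on the log2 scale and 311 by over 2, while 337 were lower by over 1 and 16 by over 2. The median over all tested genes was 0.03. The balance of directions moved with the scaling: 54.2% of calls were lower with TMM, 42.9% with upper-quartile factors and 68.5% with library size alone, which shifted the median of all genes to -0.08. Each count of members from this fit is to be read against 10.2% higher and 12.0% lower. Counts from other fits have their own shares, such as 14.2% higher and 16.3% lower in KO. Library size alone called 760 of 10930 genes higher and 1652 lower. Offsets for coding length, described below, called 918 of 10474 higher and 681 lower.

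**Figure D1:**
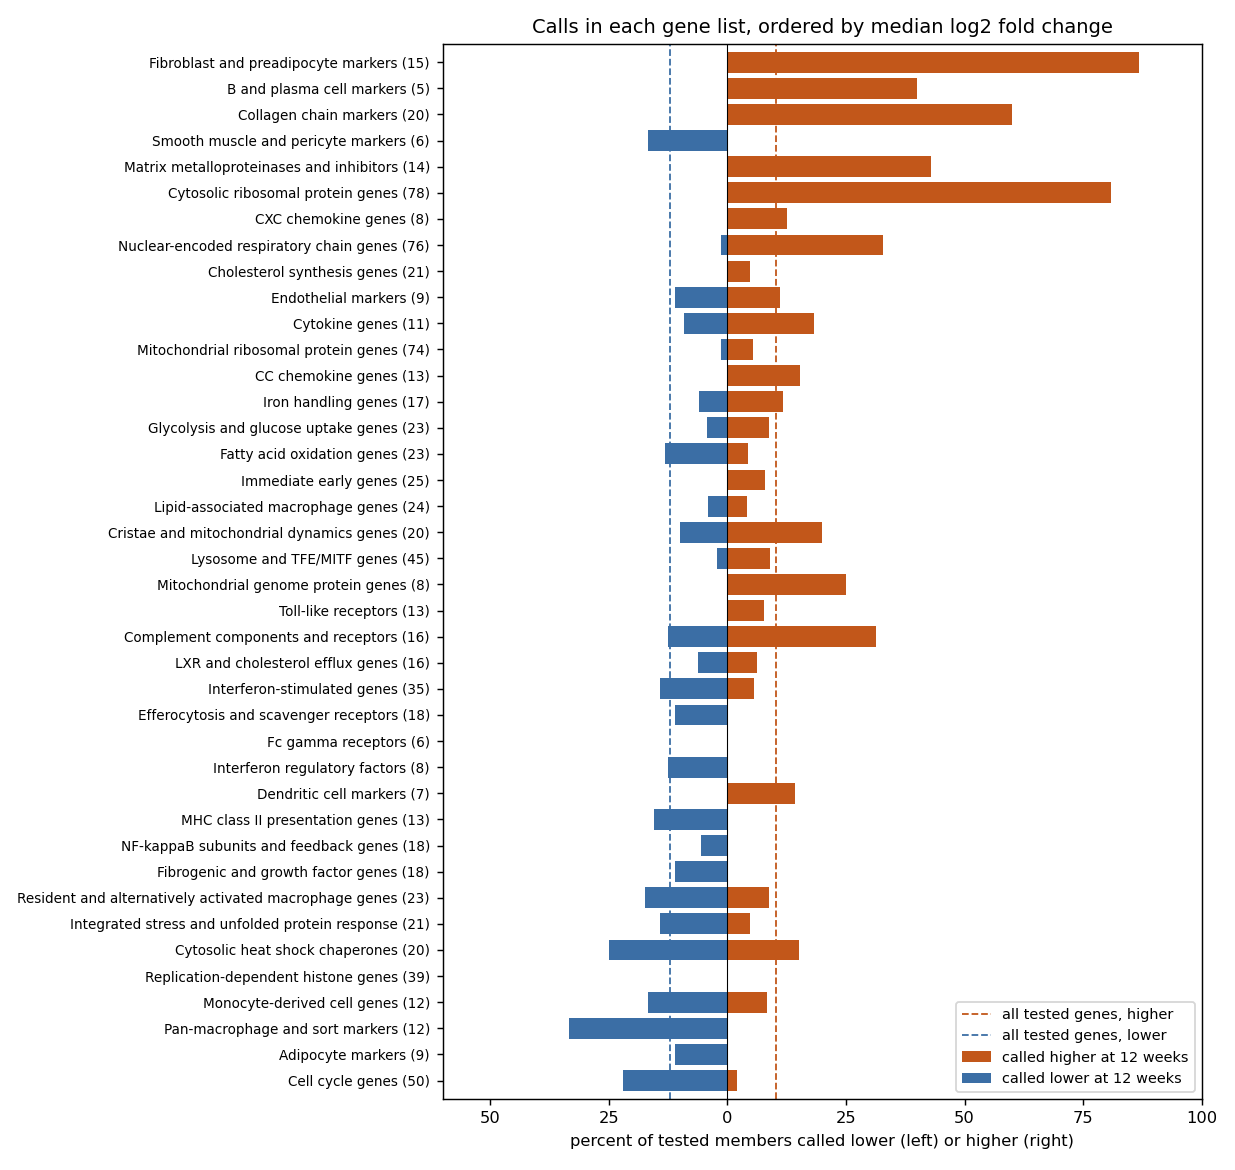
Horizontal bars give the percent of tested members (their number in parentheses) of 40 gene lists called higher (right, orange) or lower (left, blue) at 12 weeks in WT, ordered by the list's median log2 fold change, and dashed lines mark the 10.2% higher and 12.0% lower of all tested genes. Fibroblast markers and cytosolic ribosomal proteins have the longest bars to the right, and pan-macrophage markers the longest to the left.

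Most fibroblast and matrix genes were higher at 12 weeks, with changes of over 3 on the log2 scale among them. Of 15 fibroblast and preadipocyte markers 13 rose and none fell, with a median log2 fold change of 2.55, and 12 of 20 tested collagen chains rose with a median of 1.33. Dcn encodes decorin, a small proteoglycan that binds collagen fibrils (ENSMUSG00000019929, chromosome 10 from 97479609 to 97518143 on GRCm38). It was at 88.3, 96.04, 149 and 81.6 CPM at 4 weeks and 864, 795, 721 and 2952 CPM at 12 weeks (log2 fold change 3.69 ± 0.47 SE, edgeR adjusted p = 3.71e-04). The 3 libraries of replicates 1 to 3 lay close together at 12 weeks, far above every library at 4 weeks, and replicate 4 lay higher still. Col1a2, a chain of type I collagen, was at 167, 145, 183 and 158 CPM at 4 weeks and 609, 610.3, 588 and 1616 CPM at 12 weeks (log2 fold change 2.39 ± 0.31 SE, edgeR adjusted p = 4.52e-04). Col3a1, the chain of type III collagen, was at 519, 487, 498 and 545 CPM at 4 weeks and 1395, 1392, 1185 and 2953 CPM at 12 weeks (log2 fold change 1.76 ± 0.26 SE, edgeR adjusted p = 7.82e-04). Both collagens were present in every library at 4 weeks, and their groups did not overlap.

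The same held for other markers of these cells. Lum, which encodes the proteoglycan lumican, was at 15.95, 16.8, 20.3 and 14.4 CPM at 4 weeks and 129.9, 70.98, 108 and 284 CPM at 12 weeks (log2 fold change 3.14 ± 0.38 SE, edgeR adjusted p = 2.84e-04). Dpt, which encodes the matrix protein dermatopontin, was at 23.2, 26.7, 34.7 and 21.95 CPM at 4 weeks and 148, 158, 127 and 453 CPM at 12 weeks (log2 fold change 3.06 ± 0.39 SE, edgeR adjusted p = 4.20e-04). Pdgfrb, a growth factor receptor of mesenchymal cells, was at 5.45, 4.14, 8.29 and 6.38 CPM at 4 weeks and 47.5, 32.7, 40.3 and 113 CPM at 12 weeks (log2 fold change 3.27 ± 0.40 SE, edgeR adjusted p = 3.10e-04). In all 3 every library at 12 weeks lay above every library at 4 weeks. The type VI collagen chains Col6a1 (log2 1.82 ± 0.28, edgeR adjusted p = 9.68e-04) and Col6a2 (log2 1.55 ± 0.24, edgeR adjusted p = 0.00101) rose with them. So did the matricellular protein genes Sparc (log2 2.22 ± 0.26, edgeR adjusted p = 2.47e-04) and Smoc2 (log2 3.08 ± 0.34, edgeR adjusted p = 1.89e-04) and the proteoglycan gene Ogn (log2 3.64 ± 0.43, edgeR adjusted p = 2.56e-04). Of the genes with the smallest p in this direction, Adh1 (log2 3.66 ± 0.37, edgeR adjusted p = 9.96e-05) encodes an alcohol dehydrogenase and Pla1a (log2 3.48 ± 0.40, edgeR adjusted p = 2.32e-04) a phospholipase. Abca8a (log2 3.21 ± 0.39, edgeR adjusted p = 2.84e-04) encodes a lipid transporter, and Figf (now Vegfd, log2 3.85 ± 0.46, edgeR adjusted p = 2.84e-04) a vascular growth factor. Dpep1, which encodes a dipeptidase, was at 11.5, 13.6, 21.9 and 10.3 CPM at 4 weeks and 126, 156, 108 and 439 CPM at 12 weeks.

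Among called genes with a mean of at least 10 CPM and no overlap, the largest log2 fold changes belonged to genes with low levels at 4 weeks. Inmt, a methyltransferase gene, was at 2.53, 1.15, 11.3 and 0.938 CPM at 4 weeks and 66.8, 98.5, 78.002 and 319 CPM at 12 weeks (log2 fold change 5.23 ± 0.73 SE, edgeR adjusted p = 6.54e-04). Agt, which encodes angiotensinogen, was at 0.584, 0, 1.76 and 0.375 CPM at 4 weeks and 8.69, 8.003, 14.1 and 61.2 CPM at 12 weeks (log2 fold change 5.10 ± 0.89 SE, edgeR adjusted p = 0.00206). Cyp1b1, which encodes a cytochrome P450 that oxidises steroids, was at 6.03, 7.12, 10.6 and 6.94 CPM at 4 weeks and 69.01, 83.5, 69.6 and 274 CPM at 12 weeks (log2 fold change 4.03 ± 0.49 SE, edgeR adjusted p = 2.94e-04). In all 3 the lowest library at 12 weeks lay above the highest at 4 weeks, which the condition of no overlap required. Replicate 4 at 12 weeks was the highest library for each of these genes.

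The summed level of the 15 fibroblast markers was 2021, 1943, 2316 and 1932 CPM at 4 weeks and 6873, 6426, 6242 and 19931 CPM at 12 weeks, a ratio of means of 4.81. It was 3.17 times the mean at 4 weeks over replicates 1 to 3 and 9.71 times it in replicate 4. Among the 311 genes higher by over 2, replicate 4 was the highest of the 8 libraries for 301 (96.8%), against 760 of all 1112 higher genes (68.3%). Without replicate 4 at 12 weeks, 13 fibroblast markers and 12 collagen chains passed the test, with medians of 1.87 and 0.83, and Dcn changed by 2.92 (edgeR adjusted p = 8.67e-06). Of the 311 genes, 301 were still called without it and 189 were still over 2. In bulk libraries, more cells of a type and more RNA per cell cannot be told apart, and fibroblasts are a cell type that the F4/80 selection does not target. The part of fibroblast RNA in the results below was not tested.

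**Figure D2:**
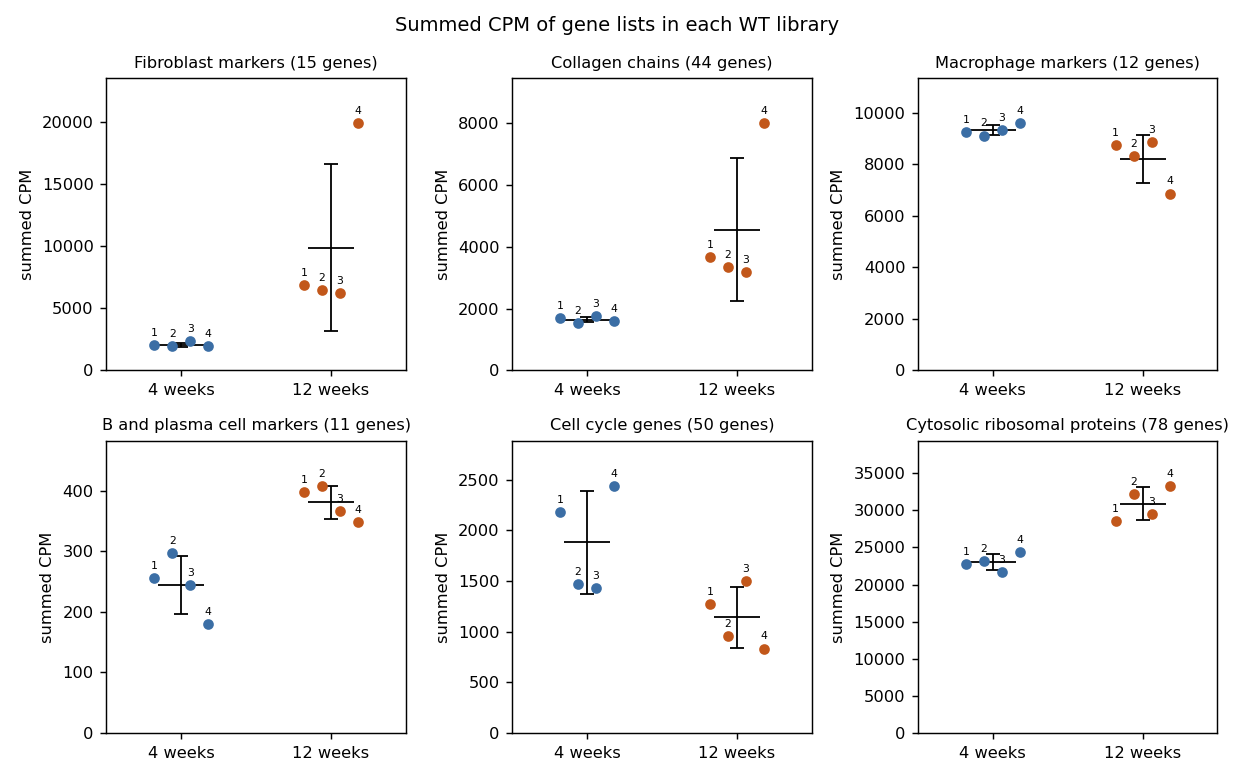
Each point is the summed CPM of all genes of a list in 1 WT library, numbered by replicate, with the mean (line) and SD (error bars, n = 4) at 4 weeks (blue) and 12 weeks (orange). The summed fibroblast markers and collagens are higher at 12 weeks in every library and highest in replicate 4, ribosomal proteins are higher in every library, and replicate 4 has the lowest sum of macrophage markers.

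Several genes that remodel matrix rose too. Of 14 tested metalloproteinases and inhibitors 6 rose and none fell. Mmp2, which encodes a gelatinase, was at 16.1, 12.2, 23.9 and 21.02 CPM at 4 weeks and 117, 70.3, 118 and 383 CPM at 12 weeks (log2 fold change 3.24 ± 0.49 SE, edgeR adjusted p = 9.10e-04). Mmp14, whose product activates it, was at 21.6, 16.1, 27.6 and 22.5 CPM at 4 weeks and 73.6, 61.9, 72.9 and 226 CPM at 12 weeks (log2 fold change 2.31 ± 0.40 SE, edgeR adjusted p = 0.00185). The protease gene Adamts1 (log2 2.25 ± 0.50, edgeR adjusted p = 0.00781) and the inhibitor gene Timp3 (log2 2.64 ± 0.45, edgeR adjusted p = 0.00186) rose too. Among the metalloproteinases and inhibitors, the number lower was 1 without replicate 2 at 4 weeks, and the other settings gave 0 to 1 lower. Of 16 tested complement genes 5 rose and 2 fell, among them C1s and C1ra, which encode the serine proteases of the first component. C1s was at 18.7, 16.1, 24.1 and 16.7 CPM at 4 weeks and 115, 88.4, 87.9 and 407 CPM at 12 weeks (log2 fold change 3.21 ± 0.49 SE, edgeR adjusted p = 0.001). C1ra changed by 2.33 ± 0.39 (SE, edgeR adjusted p = 0.00174), and since both have close copies in the mouse genome the split of their reads is uncertain. Among the complement genes, the number higher was 3 without replicate 2, 3 or 4 at 4 weeks, and the number lower was 1 without replicate 1, 2, 3 or 4 at 4 weeks or replicate 1 or 2 at 12 weeks, and the other settings gave 0 to 2 lower. Cd55 (log2 2.35 ± 0.51, edgeR adjusted p = 0.00708), whose product shields cells from complement, was highest in replicates 3 and 4. The small heat shock genes Hspb8 (log2 3.24 ± 0.65, edgeR adjusted p = 0.00475) and Cryab (log2 2.49 ± 0.54, edgeR adjusted p = 0.00683) rose as well. So did the lipoprotein receptor gene Vldlr (log2 3.18 ± 0.46, edgeR adjusted p = 7.29e-04).

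Csf1, the growth factor that macrophages need to survive and divide, was at 4.28, 7.35, 5.78 and 6.19 CPM at 4 weeks and 21.2, 20.5, 10.1 and 48.2 CPM at 12 weeks (log2 fold change 2.09 ± 0.41 SE, edgeR adjusted p = 0.00429). All 4 libraries at 12 weeks lay above all 4 at 4 weeks, and replicate 4, with the most fibroblast transcripts, was again the highest. Ccl11, which encodes the eosinophil attractant eotaxin, was at 6.42, 7.35, 7.03 and 4.88 CPM at 4 weeks and 47.8, 69.2, 20.8 and 106 CPM at 12 weeks (log2 fold change 3.25 ± 0.43 SE, edgeR adjusted p = 4.52e-04), again without overlap. Cxcl12 (log2 1.09 ± 0.35, edgeR adjusted p = 0.0487), the chemokine of CXCR4, had overlapping groups and lost its call with RLE factors (edgeR adjusted p = 0.0505), library size alone (0.0533), limma-voom (0.0511), the replicate block (0.0919) and the length offsets (0.152), and without replicate 1, 3 or 4 at 4 weeks or replicate 1, 2 or 4 at 12 weeks (edgeR adjusted p = 0.0543 to 0.136). Tgfb1, the gene of the cytokine that drives collagen synthesis in fibroblasts, was lower, at 288, 304, 291 and 275 CPM at 4 weeks and 228, 208, 202 and 159 CPM at 12 weeks (log2 fold change -0.54 ± 0.12 SE, edgeR adjusted p = 0.00711).

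**Figure D3:**
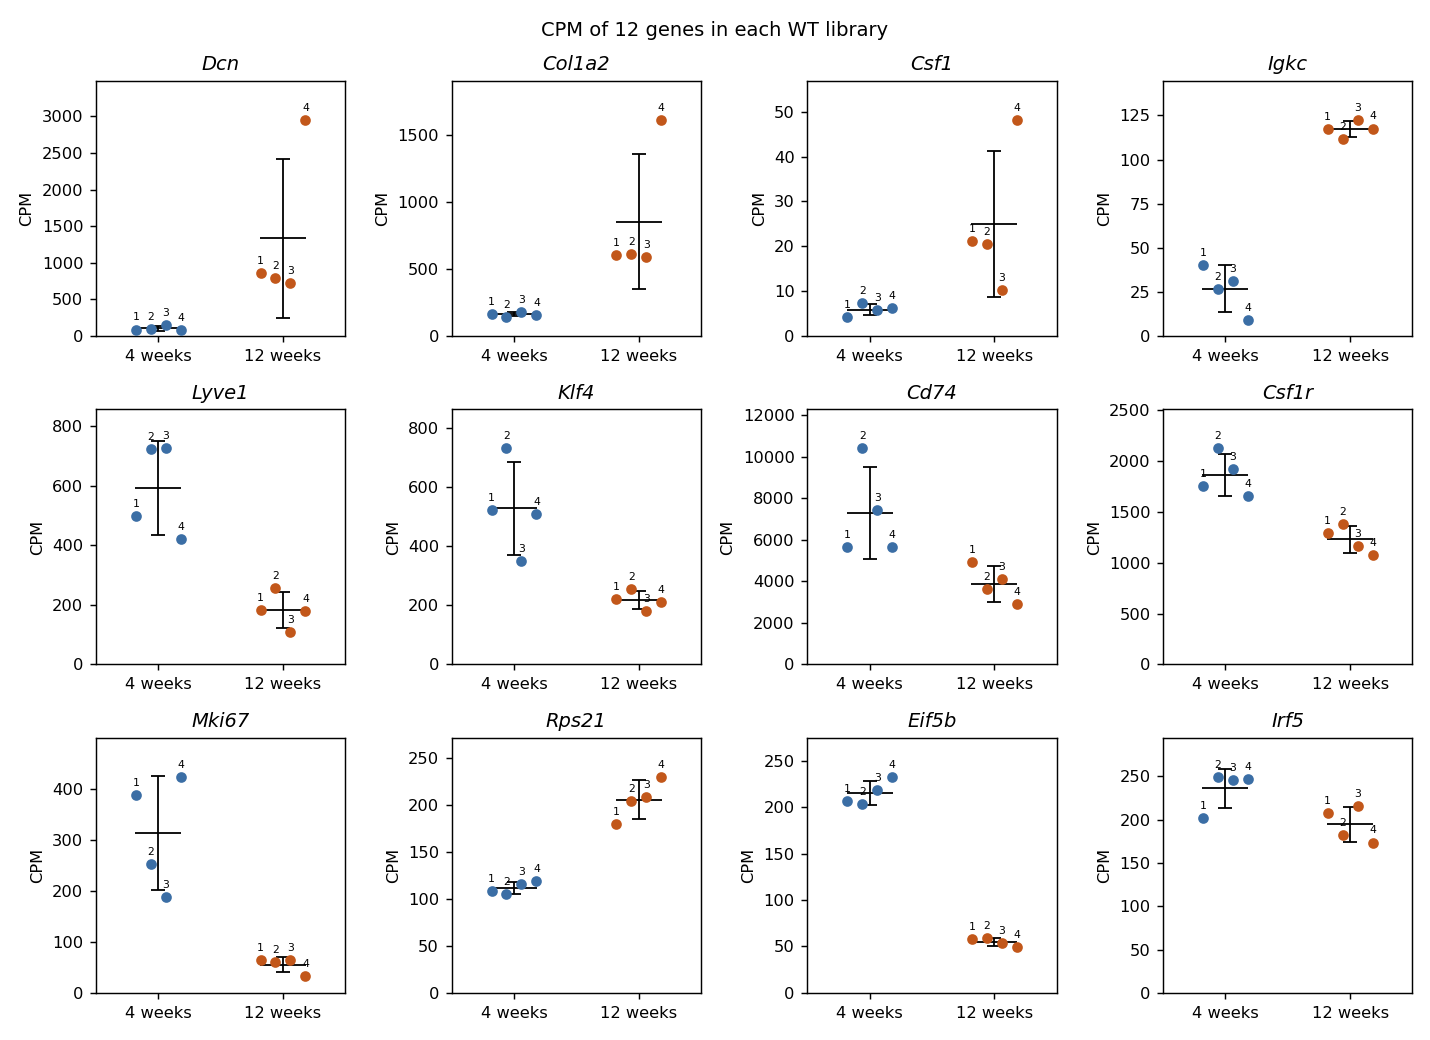
Each point is the CPM of a gene in 1 WT library, numbered by replicate, with the mean (line) and SD (error bars, n = 4) at 4 weeks (blue) and 12 weeks (orange), each axis starting at 0. The 2 durations do not overlap for 11 of the 12 genes shown, and overlap for Irf5, and replicate 4 at 12 weeks is far above the others for Dcn, Col1a2 and Csf1 but not for Igkc or Rps21.

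Markers of other cells changed less evenly. Igkc, the kappa light chain of antibodies, was at 40.1, 26.9, 31.4 and 8.82 CPM at 4 weeks and 117, 112, 122 and 118 CPM at 12 weeks (log2 fold change 2.13 ± 0.32 SE, edgeR adjusted p = 9.32e-04). Igj (now Jchain), the joining chain that plasma cells make, was at 7.20, 4.83, 10.05 and 4.50 CPM at 4 weeks and 33.7, 23.3, 32.7 and 22.97 CPM at 12 weeks (log2 fold change 2.10 ± 0.26 SE, edgeR adjusted p = 3.55e-04). Both were higher at 12 weeks without overlap, and reads of immunoglobulin genes can be shared between near-identical segments. Igkc lay between 112 and 122 CPM in all 4 libraries at 12 weeks, so replicate 4 did not stand out here. They were 2 of 5 tested B and plasma cell markers, and the list's summed level was 256, 297, 245 and 181 CPM at 4 weeks and 399, 409, 367 and 348 CPM at 12 weeks. Of 9 tested endothelial markers, Tek (log2 2.59 ± 0.44, edgeR adjusted p = 0.00177), the angiopoietin receptor, rose and Eng (log2 -0.58 ± 0.15, edgeR adjusted p = 0.0147), which macrophages also express, fell. Without replicate 1 at 4 weeks 2 endothelial markers were higher. Wt1 (log2 3.01 ± 0.51, edgeR adjusted p = 0.0017) was the 1 mesothelial marker tested, at 0.389, 0.919, 1.76 and 0.938 CPM at 4 weeks and 5.43, 6.61, 5.07 and 14.9 CPM at 12 weeks. Myh11 (log2 -2.04 ± 0.65, edgeR adjusted p = 0.0452), a smooth muscle myosin, fell, with overlapping groups, from 3.11, 14.9, 8.29 and 2.81 CPM at 4 weeks to 2.17, 0.348, 1.13 and 3.04 CPM at 12 weeks. Dpp4 (log2 1.56 ± 0.38, edgeR adjusted p = 0.0129), listed with dendritic cells but also made by preadipocytes, rose with overlapping groups, alone among 7 tested dendritic cell markers. Of 9 adipocyte markers, Fasn (log2 -0.54 ± 0.16, edgeR adjusted p = 0.0316), fatty acid synthase, fell, a call that was lost and turned to 0.22 (edgeR adjusted p = 0.383) with the offsets for coding length described below. Fasn lost its call without replicate 1 or 2 at 4 weeks or replicate 1, 2 or 4 at 12 weeks (edgeR adjusted p = 0.0512 to 0.0901). Fasn also lost it with the replicate block (adjusted p = 0.0661). Myh11 lost its call without replicate 2 or 3 at 4 weeks or replicate 1, 2 or 3 at 12 weeks (edgeR adjusted p = 0.0749 to 0.132). Myh11 also lost it by limma-voom (adjusted p = 0.15), with the replicate block (0.121) and with the length offsets (0.173). None of the listed markers of neutrophils, mast cells, NK cells or erythroid cells passed the filter on low counts, and the summed counts per library were at most 14 for neutrophils, 29 for NK cells and 13 for erythroid cells. The 7 mast cell markers together were at 1.95, 3.91, 1.26 and 1.69 CPM at 4 weeks and 13.6, 6.26, 11.8 and 15.2 CPM at 12 weeks, a ratio of means of 5.33 without overlap, from 5 to 55 counts per library. Its part in the results was not tested.

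The change with duration was related to the length of a gene's coding sequence. Across 10474 protein-coding genes, Spearman's rho between the log2 fold change and coding length was -0.422. This is a description across genes of the same 8 libraries, which are not independent. In the shortest quintile of coding lengths (111 to 765 bases) the median log2 fold change was 0.24, with 17.1% of genes higher and 1.05% lower, and in the longest quintile (2580 to 23151 bases) it was -0.36, with 6.11% higher and 38.0% lower. All 4 libraries at 4 weeks had longer genes above the mean of the 8 libraries (rho 0.205 to 0.337 per library), and all 4 at 12 weeks had them below it (-0.251 to -0.311). The libraries labelled KO gave nearly the same value, -0.424, between their durations. With offsets per library smoothed on coding length and GC content, an alternative chosen after the data were seen, 918 genes were higher and 681 lower, so that lower calls made up 42.6% of all calls. Of the calls made without the offsets 90 changed sign. The part of RNA integrity in this was not tested, since no value per library is given in the sources used here. Of the other genes named here, Eng, Mrpl52, mt-Nd1, Nfkb1, Insig1, Parp14, Ppargc1b and Cpt1a lost their calls with the offsets (edgeR adjusted p = 0.0591 for Ppargc1b to 0.54 for Nfkb1).

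**Figure D4:**
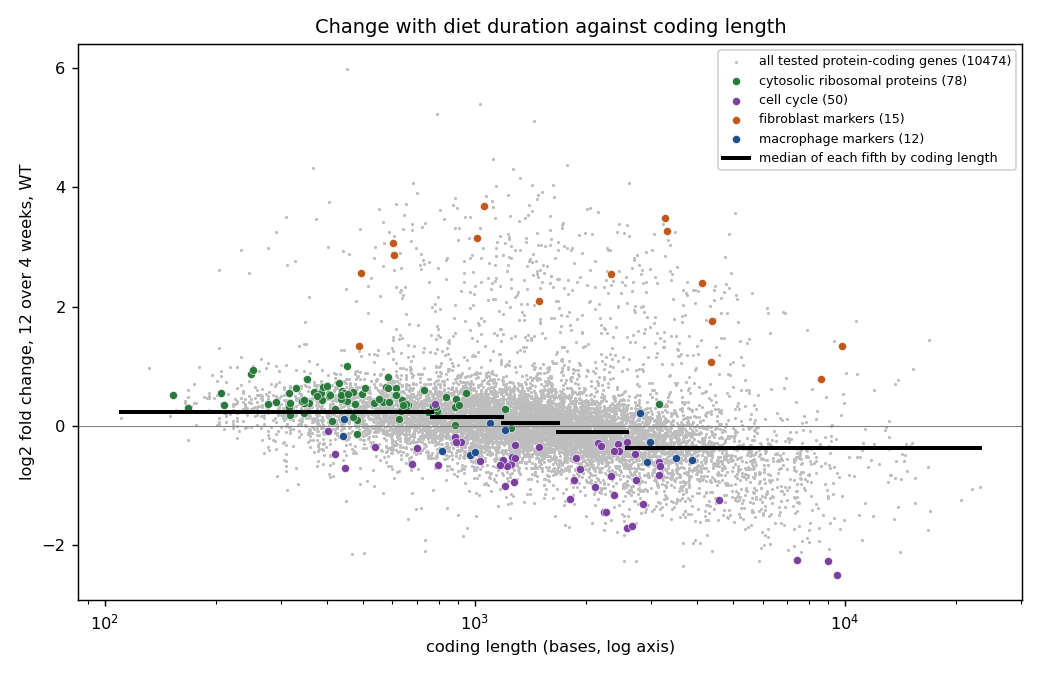
Each point is a tested protein-coding gene, plotted by coding length (bases, log axis) and log2 fold change of 12 over 4 weeks in WT, with 4 gene lists in colour and black bars at the median of each quintile of genes by coding length. The medians fall from 0.24 to -0.36, ribosomal proteins lie at the short end, 76 of 78 above 0, and fibroblast markers lie above 0 at every length.

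The lower genes with the smallest p were long. Eif5b, a translation initiation factor with a coding length of 3648 bases, was at 207, 203, 218 and 232 CPM at 4 weeks and 58.4, 58.8, 53.5 and 49.3 CPM at 12 weeks (log2 fold change -1.97 ± 0.10 SE, edgeR adjusted p = 7.36e-06). Its 4 libraries at 12 weeks lay far below the lowest library at 4 weeks. Myh9, the heavy chain of non-muscle myosin (5880 bases), was at 2085, 2045, 2002 and 1990.0 CPM at 4 weeks and 548, 420.4, 439 and 289.5 CPM at 12 weeks (log2 fold change -2.26 ± 0.17 SE, edgeR adjusted p = 2.77e-05). Apc, a scaffold of the complex that marks beta-catenin for destruction (8526 bases), was at 122, 125, 115 and 111 CPM at 4 weeks and 38.9, 33.8, 36.9 and 35.4 CPM at 12 weeks (log2 fold change -1.70 ± 0.10 SE, edgeR adjusted p = 1.26e-05). The nuclear proteins Tpr (-2.01, 7293 bases), Numa1 (-1.97, 6282 bases), Ncor1 (-1.46, 7362 bases), Ncoa6 (-1.85, 6207 bases) and Mll1 (now Kmt2a, -1.50, 11898 bases) fell on the log2 scale, as did Prrc2c (-1.93) and Bod1l (-2.07). Eif5b, Apc and these genes were named only among genes without overlap, so the lack of overlap was a condition of naming them. With the length offsets they remained called, with Eif5b at -1.65 (edgeR adjusted p = 4.64e-05) and Apc at -1.03 (edgeR adjusted p = 2.28e-04). The median coding length was 3069 bases over the protein-coding genes called lower, 1044 over those called higher and 1419 over all tested.

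Many genes of the cytosolic ribosome and of the respiratory chain, most of them short, were higher at 12 weeks. Of 78 cytosolic ribosomal protein genes 63 rose and none fell, with a median log2 fold change of 0.43 and a median coding length of 462 bases. Their summed level was 22758, 23145, 21750.0 and 24346 CPM at 4 weeks and 28510.0, 32217, 29560.0 and 33335 CPM at 12 weeks, and the groups did not overlap. Rps21 was at 108, 105, 116 and 119 CPM at 4 weeks and 179, 204, 209 and 229.7 CPM at 12 weeks (log2 fold change 0.88 ± 0.10 SE, edgeR adjusted p = 2.56e-04). Rps14 was at 146, 149.6, 161 and 181 CPM at 4 weeks and 277, 376, 289 and 342 CPM at 12 weeks (log2 fold change 1.01 ± 0.12 SE, edgeR adjusted p = 3.22e-04). Rps27 (log2 0.93 ± 0.12, edgeR adjusted p = 4.52e-04) and Rpl34 (log2 0.79 ± 0.11, edgeR adjusted p = 7.30e-04) rose too. Ribosomal protein genes have many processed pseudogenes, so the split of reads between copies is uncertain. After offsets 30 of the 78 were higher (median 0.27), without replicate 4 at 12 weeks 47, with library size alone 36 and without the filter on low counts 41.

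Of 76 tested nuclear genes of the respiratory chain 25 rose and 1 fell (median 0.35, median coding length 430.5 bases). Cox4i1, a subunit of cytochrome c oxidase, was at 124, 96.96, 109 and 119 CPM at 4 weeks and 160.3, 177, 176 and 177 CPM at 12 weeks (log2 fold change 0.62 ± 0.10 SE, edgeR adjusted p = 0.00157). Cox6c (log2 0.64 ± 0.11, edgeR adjusted p = 0.00238) and Cox7a2l (log2 0.72 ± 0.12, edgeR adjusted p = 0.00166), of the same complex and of its supercomplex, rose too. The count moved with the setting, to 33 with upper-quartile factors, 31 of 74 genes with a mean of at least 10 CPM and 27 with all 16 libraries. It was 17 by DESeq2, 15 with the replicate block, 10 without the filter on low counts, 6 with the length offsets and 6 with library size alone. With 1 library left out it was 7 (without replicate 3 at 4 weeks) to 16. Of 74 mitochondrial ribosomal protein genes (median coding length 594 bases) 4 rose, Mrpl52 among them (0.46, a call lost with library size alone, edgeR adjusted p = 0.0611), and 1, Mrps15, fell (-0.54). Mrps15 lost its call without replicate 4 at 4 weeks or replicate 1 or 4 at 12 weeks (edgeR adjusted p = 0.0523 to 0.0597). Among the mitochondrial ribosomal protein genes, the number higher was 1 without replicate 1 at 4 weeks or replicate 1 at 12 weeks and 2 without replicate 2 or 3 at 4 weeks or replicate 2 at 12 weeks, and the number lower was 0 without replicate 4 at 4 weeks or replicate 1 or 4 at 12 weeks, and the other settings gave 0 to 5 higher. Of the mitochondrial genome's 8 tested protein genes, mt-Nd3 at 10.1, 10.1, 7.28 and 9.19 CPM at 4 weeks and 14.9, 15.7, 20.8 and 18.3 CPM at 12 weeks (log2 fold change 0.92 ± 0.19 SE, edgeR adjusted p = 0.00494) and mt-Nd1 (log2 0.63 ± 0.15, edgeR adjusted p = 0.0112) rose. The list's median was 0.05. It was -0.09 without replicate 4 at 4 weeks, -0.10 without replicate 2 at 12 weeks and -0.06 with library size alone, and in each of these settings 1 member was lower. Of 20 genes of cristae and mitochondrial shape 4 rose and 2 fell. Among the cristae genes, the number higher was 1 without replicate 3 at 4 weeks or replicate 1, 2 or 4 at 12 weeks and 2 without replicate 1, 2 or 4 at 4 weeks or replicate 3 at 12 weeks, and the number lower was 1 without replicate 1, 3 or 4 at 4 weeks, and the other settings gave 1 to 4 higher and 0 to 3 lower. Ghitm, an inner membrane protein that the study follows (ENSMUSG00000041028, chromosome 14 from 37120092 to 37135272 on GRCm38), was at 59.5, 52.8, 54.01 and 40.9 CPM at 4 weeks and 77.2, 66.8, 60.5 and 85.5 CPM at 12 weeks (log2 fold change 0.49 ± 0.15 SE, edgeR adjusted p = 0.0353). Its groups did not overlap, and the call was lost with all 16 libraries in the fit, with the replicate block, with library size alone and with the length offsets. Ghitm lost its call without replicate 2, 3 or 4 at 4 weeks or replicate 1, 2 or 4 at 12 weeks (edgeR adjusted p = 0.0567 to 0.108). The fission factor Fis1 (log2 0.56 ± 0.13, edgeR adjusted p = 0.01) rose. The fusion and cristae gene Opa1 (log2 -0.58 ± 0.14, edgeR adjusted p = 0.0128) and the ion exchanger gene Letm1 (log2 -0.48 ± 0.13, edgeR adjusted p = 0.0246) fell. Both lost their calls with the length offsets (edgeR adjusted p = 0.119 and 0.143). Letm1 lost its call without replicate 1, 3 or 4 at 4 weeks (edgeR adjusted p = 0.051 to 0.0557). Letm1 also lost it with the length offsets (adjusted p = 0.143).

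Some macrophage genes were lower at 12 weeks. Of 12 pan-macrophage and sorting markers none rose and 4 fell (median -0.34), and their summed level was 9256, 9111, 9327 and 9599.5 CPM at 4 weeks and 8746, 8317, 8859.6 and 6860.2 CPM at 12 weeks, without overlap and lowest in replicate 4 at 12 weeks. Csf1r, the receptor of CSF1, was at 1759, 2126, 1920.3 and 1656 CPM at 4 weeks and 1298, 1381, 1169 and 1076 CPM at 12 weeks (log2 fold change -0.60 ± 0.13 SE, edgeR adjusted p = 0.00626). Itgam (log2 -0.54 ± 0.13, edgeR adjusted p = 0.0115), which encodes CD11b, and Ptprc (log2 -0.56 ± 0.14, edgeR adjusted p = 0.0144), which encodes CD45, fell too. With the length offsets Emr1 was higher (0.43, edgeR adjusted p = 0.0385). The calls of Csf1r (-0.29, edgeR adjusted p = 0.124), Itgam (-0.20, edgeR adjusted p = 0.349) and Ptprc (-0.22, edgeR adjusted p = 0.281) were lost. Of the 12 markers 1, not named here, was lower with the offsets, and the list's median was -0.21.

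Some genes of resident, tissue-remodelling macrophages fell. Lyve1, a hyaluronan receptor of macrophages that lie along vessels (ENSMUSG00000030787, chromosome 7 from 110850607 to 110863239 on GRCm38), was at 498, 725, 726 and 420.1 CPM at 4 weeks and 182, 258, 109.8 and 179 CPM at 12 weeks (log2 fold change -1.70 ± 0.25 SE, edgeR adjusted p = 8.54e-04), and the highest library at 12 weeks lay below the lowest at 4 weeks. Klf4, a transcription factor of alternative activation, was at 523, 731, 349 and 509 CPM at 4 weeks and 221, 256, 182 and 209.8 CPM at 12 weeks (log2 fold change -1.28 ± 0.20 SE, edgeR adjusted p = 0.00103). The scavenger receptor genes Cd163 and Stab1 were lower too. Cd163 was at 1075, 1616, 1290.1 and 841 CPM at 4 weeks and 609, 856, 390.3 and 682 CPM at 12 weeks (log2 fold change -0.93 ± 0.24 SE, edgeR adjusted p = 0.019), with overlapping groups, and Stab1 (log2 -0.78 ± 0.13, edgeR adjusted p = 0.00154) had no overlap. Timd4, the phosphatidylserine receptor of long-lived resident macrophages, was at 15.2, 29.4, 25.9 and 15.2 CPM at 4 weeks and 10.6, 17.7, 7.88 and 12.2 CPM at 12 weeks and did not pass (log2 fold change -0.83 ± 0.29 SE, edgeR adjusted p = 0.0642). Timd4 passed without replicate 1 or 4 at 4 weeks or replicate 2 at 12 weeks (edgeR adjusted p = 0.0261 to 0.0498). Timd4 also passed with library size alone (adjusted p = 0.0246), without the filter on low counts (0.0176) and by DESeq2 (0.0479). Lyve1, Klf4, Cd163 and Stab1 were the 4 of 23 tested genes of that list that fell, 2, Clec10a and Sepp1 (now Selenop), rose, and the list's median was -0.16. It was -0.08 without replicate 2 and -0.26 without replicate 4 at 4 weeks, and -0.32 without replicate 2 and -0.03 without replicate 3 at 12 weeks. No member was called higher without any 1 library at 4 weeks, without replicate 2 at 12 weeks or with the length offsets, and 1 was without replicate 1 at 12 weeks. Without replicate 2 at 12 weeks 7 members were lower. Lyve1 (-1.84, edgeR adjusted p = 0.0016) and Klf4 (-1.25, edgeR adjusted p = 0.00223) remained lower with the length offsets. Cd163 (-0.60, edgeR adjusted p = 0.129) and Stab1 (-0.01, edgeR adjusted p = 0.962) lost their calls.

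Of 12 tested genes of monocyte-derived cells 2 fell and 1, Vcan, rose. Vcan had overlapping groups (edgeR adjusted p = 0.0498). No member was higher with RLE factors, library size alone, limma-voom, the replicate block or all 16 libraries, nor without replicate 1, 3 or 4 at 4 weeks or replicate 1 or 2 at 12 weeks. Without replicate 1 at 4 weeks 4 members were lower. Fn1, which encodes fibronectin, was at 1465, 1696, 2006 and 1066 CPM at 4 weeks and 627, 869.6, 529 and 567 CPM at 12 weeks (log2 fold change -1.27 ± 0.21 SE, edgeR adjusted p = 0.00155). Itga4, an integrin chain with which monocytes enter tissue, was at 173, 206, 197 and 180.3 CPM at 4 weeks and 120.1, 86.6, 109.5 and 83.03 CPM at 12 weeks (log2 fold change -0.92 ± 0.13 SE, edgeR adjusted p = 7.41e-04). The groups overlapped in neither gene. Itga4 remained lower with the length offsets (-0.69, edgeR adjusted p = 0.00309) and Fn1 did not pass (-0.55, edgeR adjusted p = 0.0847). Antigen presentation by MHC class II was measured by 13 genes, of which 2 fell and none rose. Among the class II genes, the number higher was 1 without replicate 2 at 4 weeks, and the other settings gave 0 to 1 higher and 1 to 2 lower. Cd74, the invariant chain, was at 5643, 10393, 7427 and 5671 CPM at 4 weeks and 4927, 3606, 4108 and 2888 CPM at 12 weeks (log2 fold change -0.91 ± 0.23 SE, edgeR adjusted p = 0.0152). Ciita, the activator of the class II genes, was at 123, 278, 199 and 116 CPM at 4 weeks and 96.4, 101, 86.5 and 70.3 CPM at 12 weeks (log2 fold change -1.02 ± 0.26 SE, edgeR adjusted p = 0.0153). H2-Eb1, a class II beta chain, was at 1575, 3107, 2221 and 1635 CPM at 4 weeks and 1709.7, 1607, 1698 and 1294 CPM at 12 weeks and did not pass (log2 fold change -0.44 ± 0.21 SE, edgeR adjusted p = 0.163). The 4 libraries at 4 weeks were spread widely for these genes, with replicate 2 the highest in each. With offsets Cd74 was at -0.96 (edgeR adjusted p = 0.0174) and Ciita at -0.59 (edgeR adjusted p = 0.13).

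Lipid-associated macrophages, which surround dying adipocytes, are marked by genes of lipid uptake and lysosomes. Of 24 such genes 1 rose and 1 fell, near or under the shares over all tested genes, and the median was 0.10. That median was -0.04 without replicate 2 and 0.25 without replicate 1 at 4 weeks, every other library but replicate 3 at 4 weeks moved it by over 1.5 times within this range, and it was -0.00493 with library size alone. Among the lipid-associated genes, the number higher was 0 without replicate 2 or 3 at 4 weeks or replicate 1, 3 or 4 at 12 weeks and 2 without replicate 1 or 4 at 4 weeks, and the number lower was 0 without replicate 2 or 3 at 4 weeks or replicate 3 at 12 weeks, and the other settings gave 0 to 3 higher. Apoe, which carries cholesterol out of cells, was at 7103, 8546, 8004 and 7256 CPM at 4 weeks and 5977, 5829.5, 4339 and 5407 CPM at 12 weeks (log2 fold change -0.52 ± 0.15 SE, edgeR adjusted p = 0.0257). Apoe lost its call without replicate 2 or 3 at 4 weeks or replicate 3 at 12 weeks (edgeR adjusted p = 0.0545 to 0.0657). Cd63, a tetraspanin of late endosomes, was at 306, 183, 240.4 and 296 CPM at 4 weeks and 389, 307, 447 and 366 CPM at 12 weeks (log2 fold change 0.56 ± 0.17 SE, edgeR adjusted p = 0.0369). Cd63 lost its call without replicate 2 or 3 at 4 weeks or replicate 1, 3 or 4 at 12 weeks (edgeR adjusted p = 0.0676 to 0.0947), and also with the length offsets and with library size alone (edgeR adjusted p = 0.128). Fabp4, a fatty acid carrier, was at 121, 51.01, 64.1 and 119.7 CPM at 4 weeks and 145, 124, 148 and 165 CPM at 12 weeks and did not pass (log2 fold change 0.71 ± 0.25 SE, edgeR adjusted p = 0.0639), though its groups did not overlap. Fabp4 passed without replicate 1 or 4 at 4 weeks (edgeR adjusted p = 0.0389 to 0.0434). Fabp4 also passed with upper-quartile factors (adjusted p = 0.0445), without the filter on low counts (0.0216), by DESeq2 (0.0498), by limma-voom (0.0451) and with the replicate block (0.0176). Cd9, at 83.8, 22.7, 45.5 and 88.4 CPM at 4 weeks and 119.8, 44.2, 164 and 97.97 CPM at 12 weeks, did not pass either (log2 fold change 0.82 ± 0.42 SE, edgeR adjusted p = 0.194), with overlapping groups, except with the replicate block (edgeR adjusted p = 0.0443). Of 18 efferocytosis and scavenger receptor genes none rose and 2, Lrp1 and Stab1, fell, near the share over all genes, with 9 of the values above 0. Among these receptor genes, the number higher was 1 without replicate 4 at 12 weeks, and the number lower was 4 without replicate 1 at 4 weeks, and the other settings gave 0 to 1 higher and 0 to 4 lower. Lrp1, a large endocytic receptor with a coding length of 13635 bases, was at 2220.5, 1675, 2500.0 and 2344 CPM at 4 weeks and 846, 516, 914 and 708 CPM at 12 weeks (log2 fold change -1.55 ± 0.19 SE, edgeR adjusted p = 3.12e-04). With offsets it was at -0.63 (edgeR adjusted p = 0.0579). None of the 6 Fc receptor genes tested passed the test. Over the other settings the Fc receptor genes had 0 to 1 lower.

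Inflammatory genes showed few calls in either direction. Irf5, the transcription factor that the study deletes (ENSMUSG00000029771, chromosome 6 from 29526625 to 29541871 on GRCm38, overlapping Tnpo3 on the opposite strand), was at 202, 249, 246 and 247 CPM at 4 weeks and 207, 182, 216 and 174 CPM at 12 weeks. Its groups overlapped and it did not pass (log2 fold change -0.28 ± 0.11 SE, edgeR adjusted p = 0.0992), except with all 16 libraries in the fit (log2 -0.30, edgeR adjusted p = 0.0485). Of 8 tested interferon regulatory factors 1, Irf2 (log2 -0.61 ± 0.12, edgeR adjusted p = 0.0044), fell. Of 11 tested cytokine genes 2 rose and 1 fell. Among the cytokine genes, the number higher was 1 without replicate 1, 3 or 4 at 4 weeks or replicate 1, 2 or 3 at 12 weeks, and the number lower was 2 without replicate 3 at 4 weeks, and the other settings gave 1 to 4 higher. Beside Csf1 and Tgfb1 above, Ifnb1, the gene of interferon beta, was at 8.37, 11.9, 3.01 and 5.25 CPM at 4 weeks and 22.01, 20.9, 13.2 and 9.69 CPM at 12 weeks (log2 fold change 1.19 ± 0.38 SE, edgeR adjusted p = 0.0468). Its groups overlapped. Ifnb1 lost its call without replicate 1, 3 or 4 at 4 weeks or replicate 1, 2 or 3 at 12 weeks (edgeR adjusted p = 0.0548 to 0.132). Ifnb1 also lost it with library size alone (adjusted p = 0.0552), with all 16 libraries (0.0886) and with the length offsets (0.125). Of 13 CC chemokine genes 2 rose, Ccl11 and Ccl4. Ccl4, which encodes MIP-1 beta, was at 79.8, 89.2, 31.6 and 84.6 CPM at 4 weeks and 189, 151, 142 and 111 CPM at 12 weeks (log2 fold change 1.05 ± 0.27 SE, edgeR adjusted p = 0.0186), without overlap. Ccl4 lost its call without replicate 1 at 12 weeks (edgeR adjusted p = 0.0595). Ccl4 also lost it with the length offsets (adjusted p = 0.0677). Among the CC chemokine genes, the number higher was 1 without replicate 1 at 12 weeks and 3 without replicate 2 at 4 weeks, and the number lower was 1 without replicate 3 at 4 weeks, and the other settings gave 1 to 2 higher. Of 18 NF-kappaB subunits and feedback genes 1, Nfkb1 (log2 -0.38 ± 0.09, edgeR adjusted p = 0.0136), fell. Among the NF-kappaB genes, the number higher was 1 without replicate 2 at 4 weeks or replicate 3 at 12 weeks, and the number lower was 2 without replicate 3 at 4 weeks, and the other settings gave 0 to 1 higher and 0 to 3 lower. Of 25 immediate early genes 2, Btg2 (log2 0.70 ± 0.13, edgeR adjusted p = 0.00354) and Dusp2 (log2 1.11 ± 0.22, edgeR adjusted p = 0.00448), rose. Among the immediate early genes, the number higher was 5 without replicate 2 at 4 weeks, and the number lower was 3 without replicate 3 at 4 weeks, and the other settings gave 2 to 6 higher and 0 to 1 lower. Of 13 Toll-like receptors and cofactors 1, the TLR4 cofactor Ly96 (log2 0.81 ± 0.26, edgeR adjusted p = 0.0474), rose. Ly96 lost its call without replicate 1, 2, 3 or 4 at 4 weeks or replicate 1, 2 or 4 at 12 weeks (edgeR adjusted p = 0.0544 to 0.118). Ly96 also lost it with library size alone (adjusted p = 0.0893), without the filter on low counts (0.0942), by DESeq2 (0.0669), by limma-voom (0.0503), with the replicate block (0.0525) and with the length offsets (0.173). Among the Toll-like receptor genes, the number higher was 0 without replicate 1, 2, 3 or 4 at 4 weeks or replicate 2 at 12 weeks, and the number lower was 1 without replicate 4 at 4 weeks or replicate 4 at 12 weeks, and the other settings gave 0 to 2 higher and 0 to 2 lower. Of 35 interferon-stimulated genes 2 rose and 5 fell. Rsad2 (log2 0.76 ± 0.22, edgeR adjusted p = 0.0324), which encodes viperin, was among the first, and Parp14 (log2 -0.82 ± 0.11, edgeR adjusted p = 5.69e-04) and Gbp7 (log2 -0.96 ± 0.27, edgeR adjusted p = 0.0238) were among the second. Among the interferon-stimulated genes, the number higher was 0 without replicate 3 or 4 at 4 weeks or replicate 2 at 12 weeks, 1 without replicate 1 at 4 weeks or replicate 3 or 4 at 12 weeks, and 3 without replicate 2 at 4 weeks. The number lower was 3 without replicate 2, 3 or 4 at 4 weeks or replicate 1 or 3 at 12 weeks, and the other settings gave 0 to 2 higher and 2 to 7 lower. Rsad2 lost its call without replicate 3 or 4 at 4 weeks or replicate 2 or 4 at 12 weeks (edgeR adjusted p = 0.0786 to 0.0982). Rsad2 also lost it with all 16 libraries (adjusted p = 0.165) and with the length offsets (0.0838). Gbp7 lost its call without replicate 1 or 3 at 12 weeks (edgeR adjusted p = 0.0568 to 0.0587).

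Chaperone genes were called in both directions. Of 20 cytosolic chaperone genes 5 fell and 3 rose. Over the other settings the chaperone genes had 3 to 7 lower. Stip1, the adaptor between HSP70 and HSP90, was at 71.2, 79.3, 65.6 and 70.2 CPM at 4 weeks and 36.1, 35.1, 38.9 and 33.8 CPM at 12 weeks (log2 fold change -0.99 ± 0.11 SE, edgeR adjusted p = 1.45e-04). Hsp90ab1, the constitutive HSP90, was at 1766, 1966, 1567 and 1721 CPM at 4 weeks and 1145, 957, 1088 and 1075 CPM at 12 weeks (log2 fold change -0.72 ± 0.11 SE, edgeR adjusted p = 0.00126). In the endoplasmic reticulum Hsp90b1 (log2 -0.81 ± 0.12, edgeR adjusted p = 7.31e-04) fell with 2 other genes, and Vldlr, above, rose, of 21 tested stress response genes. Among the stress response genes, the number higher was 3 without replicate 2 at 4 weeks or replicate 3 at 12 weeks, and the number lower was 1 without replicate 1 at 4 weeks, and the other settings gave 1 to 3 higher and 2 to 5 lower. The 4 libraries of each duration lay close together for Stip1 and Hsp90ab1, and both cytosolic genes remained lower with the length offsets, Stip1 at -0.95 (edgeR adjusted p = 8.02e-04) and Hsp90ab1 at -0.58 (edgeR adjusted p = 0.00513). The 3 that rose, Hspb8, Cryab and Dnajb4, include the small heat shock genes given above after the complement genes.

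Several genes of cell division were lower at 12 weeks. Of 50 cell cycle genes 11 fell and 1, Pcna, rose, the median log2 fold change was -0.64, and 49 of the 50 had a value below 0. Mki67 encodes Ki-67, the protein that coats chromosomes in mitosis and is absent from resting cells (ENSMUSG00000031004, chromosome 7 from 135689784 to 135716361 on GRCm38). It was at 388, 252, 188 and 423 CPM at 4 weeks and 64.1, 60.5, 65.3 and 32.4 CPM at 12 weeks (log2 fold change -2.49 ± 0.28 SE, edgeR adjusted p = 2.32e-04). Every library at 12 weeks lay below every library at 4 weeks, where replicates 1 and 4 were highest. Cenpf, a protein of the kinetochore, was at 49.998, 33.1, 27.9 and 65.5 CPM at 4 weeks and 11.1, 8.003, 12.7 and 4.98 CPM at 12 weeks (log2 fold change -2.26 ± 0.32 SE, edgeR adjusted p = 7.25e-04). Cenpe, a kinetochore motor, was at 38.5, 20.2, 18.8 and 51.98 CPM at 4 weeks and 10.1, 3.83, 9.01 and 4.15 CPM at 12 weeks (log2 fold change -2.25 ± 0.40 SE, edgeR adjusted p = 0.00229). Kif23, a kinesin of the midbody, was at 47.1, 40.2, 33.7 and 49.4 CPM at 4 weeks and 20.4, 13.6, 18.6 and 15.8 CPM at 12 weeks (log2 fold change -1.31 ± 0.17 SE, edgeR adjusted p = 4.29e-04). The groups did not overlap in any of these 4 genes, and replicates 1 and 4 at 4 weeks were the highest in each. E2f8, a repressor of the E2F family that is made in S phase, was at 17.9, 10.1, 14.1 and 22.7 CPM at 4 weeks and 5.98, 5.22, 5.07 and 3.60 CPM at 12 weeks (log2 fold change -1.71 ± 0.28 SE, edgeR adjusted p = 0.0016), again without overlap. Named after their values were seen, the other members that fell were Bub1b, Ccnf, Foxm1, Kif20a, Top2a and Tpx2. The list's summed level was 2184, 1465, 1431 and 2440.0 CPM at 4 weeks and 1274, 959.7, 1500.1 and 833 CPM at 12 weeks, and here the groups overlapped. Mki67, Cenpf and Cenpe have long coding sequences (9531, 8991 and 7413 bases). With the length offsets 8 members were lower (median -0.64), with Mki67 at -1.80 (edgeR adjusted p = 0.00247) and Kif23 at -1.10 (edgeR adjusted p = 0.00186), and without replicate 4 at 12 weeks 8 were. With 1 library left out the count was 8 to 17, the highest without replicate 3 at 12 weeks (median -0.95). The median was -0.40 without replicate 4 at 4 weeks, and 18 members were lower without the filter on low counts. Pcna lost its call without any 1 library other than replicate 4 at 12 weeks, with the replicate block, with library size alone, without the filter and with the length offsets. Of 39 tested replication-dependent histone genes none passed. Among the histone genes, the number lower was 2 without replicate 2 at 4 weeks or replicate 3 at 12 weeks, and the other settings gave 0 to 4 lower.

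The 200 bases before the RefSeq start of the 4 cell cycle genes with the smallest p are shown, since many cell cycle promoters carry a CCAAT box, bound by NF-Y, and a cell cycle homology region (CHR), bound by the DREAM complex in resting cells. They are from GRCm38.p6, 5′ to 3′ on the gene's strand, which is the minus strand for all 4, at chr7:135716380-135716579 (Mki67), chr1:189688087-189688286 (Cenpf), chr7:48881597-48881796 (E2f8) and chr9:61946800-61946999 (Kif23). Capitals mark CCAAT and TTTGAA on either strand (ATTGG and TTCAAA on the other strand).
Mki67: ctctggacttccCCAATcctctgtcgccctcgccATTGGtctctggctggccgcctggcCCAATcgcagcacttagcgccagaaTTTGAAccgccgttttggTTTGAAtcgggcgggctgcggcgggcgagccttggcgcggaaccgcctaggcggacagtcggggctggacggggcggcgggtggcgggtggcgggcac
Cenpf: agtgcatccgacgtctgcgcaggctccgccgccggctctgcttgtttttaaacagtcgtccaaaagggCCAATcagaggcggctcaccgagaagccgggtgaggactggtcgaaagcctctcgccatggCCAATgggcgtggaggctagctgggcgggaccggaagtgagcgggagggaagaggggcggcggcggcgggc
E2f8: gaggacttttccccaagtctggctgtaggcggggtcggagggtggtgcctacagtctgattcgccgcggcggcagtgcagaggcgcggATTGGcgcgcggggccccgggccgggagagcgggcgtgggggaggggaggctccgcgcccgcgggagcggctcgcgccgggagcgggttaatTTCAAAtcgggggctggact
Kif23: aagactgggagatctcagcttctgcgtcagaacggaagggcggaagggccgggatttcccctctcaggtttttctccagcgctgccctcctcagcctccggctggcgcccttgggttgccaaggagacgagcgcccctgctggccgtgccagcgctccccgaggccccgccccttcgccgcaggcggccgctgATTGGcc
In these windows Mki67 held 3 CCAAT and 2 TTTGAA matches, Cenpf 2 CCAAT, E2f8 1 of each, and Kif23 1 CCAAT. Over windows from 250 bases before to 50 after the start, 36 of 44 promoters of the tested cell cycle genes held CCAAT (81.8%) and 25 held TTTGAA (56.8%), against 37.4% and 17.9% of all 32851 promoters of that length. The 2 motifs can share a base. A match is a description of the sequence, and 41 of the 50 genes had a promoter in the table.

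Few metabolic genes were called. Of 23 fatty acid oxidation genes 3 fell and 1 rose. Cpt1a, which admits long fatty acids to mitochondria, was at 251, 240.3, 228 and 237 CPM at 4 weeks and 184, 169, 163 and 193 CPM at 12 weeks (log2 fold change -0.43 ± 0.09 SE, edgeR adjusted p = 0.00717). The regulators Ppargc1b (log2 -1.34 ± 0.31, edgeR adjusted p = 0.0104) and Ppard (log2 -0.71 ± 0.19, edgeR adjusted p = 0.0188) fell, and Hadh (log2 0.69 ± 0.14, edgeR adjusted p = 0.00597), of the oxidation spiral, rose. Of 23 genes of glucose uptake and glycolysis 2 rose and 1 fell. Hk2, the inducible hexokinase, was at 37.5, 36.3, 38.2 and 35.8 CPM at 4 weeks and 51.9, 70.6, 62.2 and 55.9 CPM at 12 weeks (log2 fold change 0.70 ± 0.12 SE, edgeR adjusted p = 0.00168), and Pfkfb3 (log2 0.57 ± 0.14, edgeR adjusted p = 0.0129), which raises glycolytic flux, rose too. Hk1, the constitutive hexokinase, was at 68.1, 75.1, 73.6 and 73.7 CPM at 4 weeks and 54.9, 38.3, 59.1 and 46.8 CPM at 12 weeks (log2 fold change -0.54 ± 0.13 SE, edgeR adjusted p = 0.0142). Neither hexokinase had overlapping groups. With the length offsets Hk2 was at 0.95 (edgeR adjusted p = 0.00105) and Hk1 at -0.24 (edgeR adjusted p = 0.256). Of 21 tested genes listed with cholesterol synthesis, not all of them enzymes, 1, Insig1 (log2 0.45 ± 0.11, edgeR adjusted p = 0.0115), rose, and 19 had values above 0 (median 0.32). Scd2 (log2 0.88 ± 0.19, edgeR adjusted p = 0.0065), a desaturase, rose, in a list of 16 genes of the LXR response in which Apoe fell. Of 45 lysosomal genes 4 rose, with Lamp2 (log2 0.56 ± 0.10, edgeR adjusted p = 0.00269) among them. Of the same list 1 fell. It was Tcfe3 (now Tfe3), a transcription factor of lysosomal genes, at 92.2, 101, 101 and 100.4 CPM at 4 weeks and 63.8, 56.02, 56.6 and 58.7 CPM at 12 weeks (log2 fold change -0.75 ± 0.09 SE, edgeR adjusted p = 3.92e-04). Among the lysosomal genes, the number higher was 1 without replicate 3 at 4 weeks and 2 without replicate 2 or 4 at 4 weeks or replicate 1, 2, 3 or 4 at 12 weeks, and the number lower was 2 without replicate 2 at 4 weeks or replicate 3 at 12 weeks, and the other settings gave 1 to 6 higher and 1 to 2 lower. Of 17 iron genes 2 rose, Steap3 (log2 0.91 ± 0.19, edgeR adjusted p = 0.00631) and Slc48a1 (log2 0.39 ± 0.13, edgeR adjusted p = 0.0478), and Cd163, the haemoglobin receptor, fell. Of 18 fibrogenic and growth factor genes 2 fell, Tgfb1 and Nrp2 (log2 -0.45 ± 0.13, edgeR adjusted p = 0.028), and none rose. Ppard lost its call without replicate 3 at 4 weeks (edgeR adjusted p = 0.0544). Ppard also lost it with the replicate block (adjusted p = 0.0523). Among the fatty acid oxidation genes, the number higher was 2 without replicate 4 at 4 weeks or replicate 3 at 12 weeks, and the other settings gave 1 to 4 higher and 1 to 3 lower. Among the cholesterol synthesis genes, the number higher was 2 without replicate 4 at 4 weeks or replicate 2 at 12 weeks, and the number lower was 1 without replicate 3 at 12 weeks, and the other settings gave 0 to 2 higher. Among the LXR genes, the number lower was 0 without replicate 3 at 4 weeks or replicate 3 at 12 weeks, and the other settings gave 1 to 3 higher and 1 to 2 lower. Slc48a1 lost its call without any 1 of the 8 libraries (edgeR adjusted p = 0.0576 to 0.14). Slc48a1 also lost it with library size alone (adjusted p = 0.201), without the filter on low counts (0.102), by DESeq2 (0.0587), with all 16 libraries (0.0934), with the replicate block (0.0532) and with the length offsets (0.208). Among the iron genes, the number higher was 1 without replicate 1, 2, 3 or 4 at 4 weeks or replicate 1, 2 or 4 at 12 weeks, and the other settings gave 1 to 2 higher and 0 to 2 lower. Nrp2 lost its call without replicate 1 at 4 weeks or replicate 1 or 4 at 12 weeks (edgeR adjusted p = 0.0518 to 0.0795). Nrp2 also lost it with upper-quartile factors (adjusted p = 0.0502) and with the length offsets (0.304). Among the fibrogenic genes, the number higher was 2 without replicate 3 at 12 weeks, and the number lower was 1 without replicate 1 at 4 weeks or replicate 1 or 4 at 12 weeks, and the other settings gave 0 to 3 higher and 1 to 4 lower.

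The same comparison in the 8 libraries labelled KO, which share no library with the WT comparison but share whatever went with duration, was used to see where the WT change differed. Irf5 did not separate them from WT, at 250.1, 254, 274 and 269.5 CPM at 4 weeks and 208, 254, 252 and 207 CPM at 12 weeks, so they are called by their label, and the floxed exons were not counted apart from the rest of the gene. Between 12 and 4 weeks 1565 genes were higher (14.2% of 11018 tested) and 1795 lower (16.3%). Of the 2409 genes called in WT and tested in KO, 2389 (99.2%) had the same sign in KO, and 1953 were called there with that sign, which is 80.5% of the WT calls and 58.1% of the 3360 KO calls. Across 10765 genes, Spearman's rho of the 2 log2 fold changes was 0.773, as a description, and both changes were related to coding length (rho -0.422 and -0.424). The interaction of genotype and duration, tested by edgeR over all 16 libraries, called 0 of 11560 genes (smallest adjusted p = 0.969), with 454 at an unadjusted p under 0.05 (3.93%), and DESeq2's Wald test called 0 as well. On counts simulated for that fit, 83.0% of genes with a difference of 2 on the log2 scale were recovered. Those counts held no other effect of genotype or duration, and smaller differences were not simulated.

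In KO as in WT 13 of 15 fibroblast markers rose (median 2.46 in KO, 2.55 in WT), and their summed level was 1434 to 2969.8 CPM at 4 weeks and 5941 to 14052 CPM at 12 weeks. Dcn was at 105, 180.4, 201 and 58.8 CPM at 4 weeks and 1602, 608, 1535 and 1495 CPM at 12 weeks (log2 3.27 ± 0.40 (SE), edgeR adjusted p = 1.55e-04). Cytosolic ribosomal proteins rose in 63 of 78 (median 0.47). Mki67 was at 349, 282, 211 and 299 CPM at 4 weeks and 65.9, 62.5, 57.01 and 37.2 CPM at 12 weeks in KO (log2 -2.36 ± 0.20 (SE), edgeR adjusted p = 1.28e-05). The cell cycle list had 6 members lower in KO with a median of -0.09, beside 11 and a median of -0.64 in WT. Lyve1 was at 312, 759, 732 and 786 CPM at 4 weeks and 151, 65.7, 77.3 and 156 CPM at 12 weeks (log2 -2.52 ± 0.35 (SE), edgeR adjusted p = 3.00e-04), and the resident list had 10 members lower in KO beside 4 in WT. No gene of these lists differed between genotypes by the interaction test. That test is made gene by gene, and whether the lists as a whole differ between WT and KO was not tested.

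**Figure D5:**
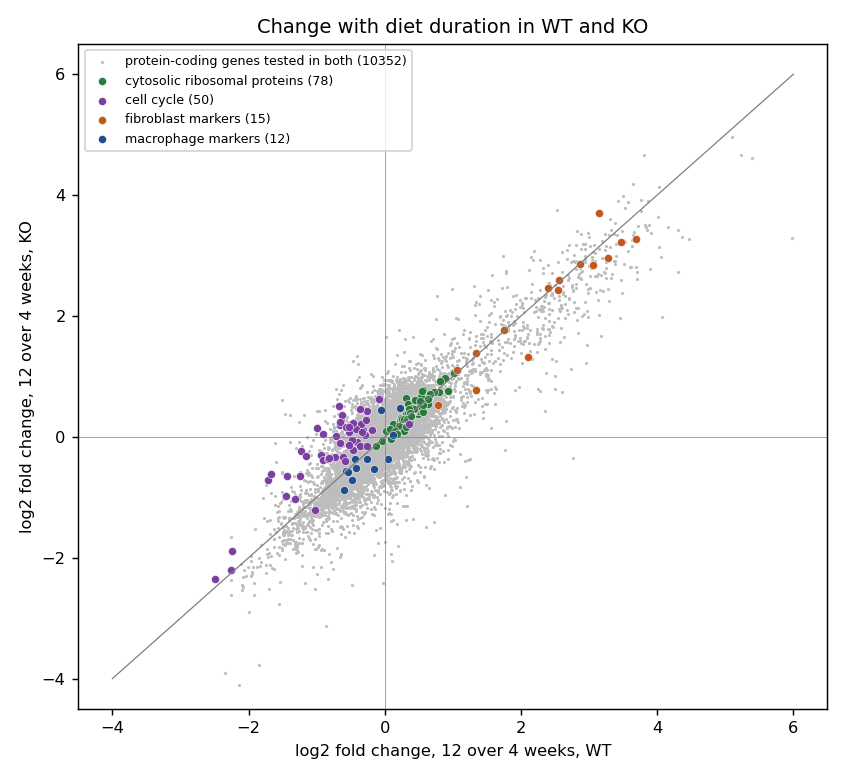
Each point is 1 of 10352 protein-coding genes tested in both genotypes, plotted by the log2 fold change of 12 over 4 weeks in WT and in KO, with 4 gene lists in colour and the line of equal change in grey. Fibroblast markers lie near the line above 0 in both, ribosomal proteins cluster just above 0 in both, and most cell cycle genes lie below 0 in WT and nearer 0 in KO.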

How the data were processed

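RNA of F4/80-selected epididymal ATMs was made into stranded, ribodepleted total RNA libraries (SMARTer kit). According to the processing notes and methods, reads were trimmed with fastp 0.19.11 and aligned and counted with STAR 2.7.3a. The notes name mm10 and mm9, and the annotation and the strand setting of the counts are not given in the sources used here. The authors deposited 1 table of raw counts per gene, 16 libraries by 37310 features, of which 32620 matched GENCODE M21 on GRCm38, the build of all coordinates here. Of 119 genes followed in detail 17 overlap another gene on the same strand and 39 on the opposite strand.

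From these counts, genes passing edgeR's filterByExpr over the 8 WT libraries (10930) were tested with TMM factors and the quasi-likelihood test (edgeR 4.0.16, R 4.3.3), with Benjamini-Hochberg adjustment. Library measures were compared by two-sided exact permutation tests. Alternatives were other scalings and filters, DESeq2 1.42.0, limma-voom (limma 3.58.1), all 16 libraries, the replicate block, each library left out and, chosen after seeing the data, offsets per library smoothed on coding length and GC content (mgcv 1.9.3). On simulated counts edgeR recovered 72.2% of genes changed by 1 and 94.9% of those changed by 2 on the log2 scale, over 10745 genes. Within each WT group no 2 libraries were alike within sampling noise, and other pairs were not compared.

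The comparison and its gene lists were chosen with earlier results of these data known. Genes were named by rule: up to 12 per direction with the smallest p and up to 6 with the largest log2 fold change among called protein-coding genes without overlap and with a mean of at least 10 CPM, Irf5, Ghitm, Emr1 and Lyz2, up to 4 members of each list with the smallest p, and up to 5 interaction genes. Pcna, Vcan, Clec10a, Sepp1 and Dnajb4 are named with counts of list members, after their values were seen. Promoters are from RefSeq (GRCm38.p6). Some genes that the rule names are not reported here.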

Additional observations from a re-analysis of the deposited data

Results flagged for a closer look

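Single libraries that stood apart within their group of 4 were marked by Dixon's ratio, the gap of the highest or lowest library to its neighbour divided by the group's range, when it passed the 95% critical value for 4 samples. Of 328 groups of 4 values checked 38 passed, where chance gives about 1 in 20, and 25 of the 38 were at 12 weeks in replicate 4. The libraries are the same in every check, so the checks are not independent.

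Replicate 4 at 12 weeks was the highest library for the summed fibroblast markers (ratio 0.954, 19931 CPM) and the summed collagen chains (ratio 0.897, 8016 CPM). The collagen and matrix genes had ratios of Col1a2 0.978, Col3a1 0.881, Col6a1 0.843, Dcn 0.936, Dpt 0.905, Ogn 0.923 and Sparc 0.836. The genes of proteases, inhibitors and complement had ratios of Adamts1 0.878, Mmp2 0.847, Mmp14 0.929, Timp3 0.892, C1s 0.916 and C1ra 0.935. Other genes that were highest there had ratios of Adh1 0.843, Agt 0.886, Cyp1b1 0.929, Dpep1 0.856, Figf 0.853, Inmt 0.874, Cryab 0.856 and Wt1 0.844. The same library was the lowest of its group for Mki67 (ratio 0.855, 32.4 CPM) and Tpr (ratio 0.831, 65.3 CPM).

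At 4 weeks, replicate 1 was the lowest for Irf5 (ratio 0.928, 202 CPM) and Tcfe3 (ratio 0.921), and stood apart for Insig1 (ratio 0.906). Replicate 2 stood apart for Irf2 (ratio 0.839). Replicate 3 was the lowest for Ccl4 (ratio 0.837) and the highest for Inmt (ratio 0.847) and Ogn (ratio 0.844), and stood apart for the summed CXC chemokines (ratio 0.853). Replicate 4 stood apart for Mrps15 (ratio 0.933) and had the lowest share of counts on mitochondrial protein genes (ratio 0.871, 0.599%). At 12 weeks, replicate 1 stood apart for Cox4i1 (ratio 0.915), and replicate 2 was the highest for mt-Nd1 (ratio 0.866) and for the summed mitochondrial genome genes (ratio 0.905).

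No gene's effect of duration differed between WT and the libraries labelled KO by the interaction test.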

How the results depend on the processing

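The 1112 higher and 1315 lower genes became 542 and 764 at an adjusted p under 0.01. With offsets for coding length and GC content 681 genes were lower, and with the replicate block and these offsets together 593 were lower and 745 higher. The stricter threshold lowers a count by construction, and for the offsets the cause was not tested. With 1 library left out at a time, the fit called 796 to 1031 genes higher and 1057 to 1246 lower. The difference in ribosomal RNA share ranged from 6.40 to 9.12 percentage points, and that in mitochondrial protein share from -0.0672 to 0.0129 around a value of -0.0120 that was not called, or 0.0976 over counts outside ribosomal RNA. The difference in total counts ranged from -1191752 to -825865, and leaving out any 12-week library gave a two-sided exact permutation p = 0.0571 against 0.0286 with any 4-week library left out. The cause was not tested.

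Replicate numbers in the titles name the same number in both groups, but deviations from the group mean correlated at 0.122, 0.367, -0.180 and -0.208 for numbers 1 to 4, so they were not taken as pairs. With the replicate number as a block 951 genes were higher and 1197 lower.

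Of 112 called genes among the 119 followed, 78 kept their direction and call in every alternative run for single genes and 34 lost the call at least once. The stricter threshold and the block with offsets were run only for the counts. With the length offsets Fasn turned to 0.22 and Lyz2, not called, to -0.10. The interaction stayed at 0 calls under every alternative run for it. At 3279332 to 4958131 counts per library, genes of a few counts were not testable.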
